A study of Mus musculus with 13 samples.

Results

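Mice that had lost Ccm3 in brain endothelium and then lived in low oxygen were compared with control mice that had met neither change. The knockout hypoxia group (KO hypoxia) held 4 libraries and the control group (flox normoxia) 3 libraries, 7 of the 13 libraries of the study, and each was chosen by its title. KO hypoxia mice were Slco1c1-iCreERT2;Pdcd10fl/fl, received 50 µg of 4-hydroxytamoxifen into the stomach on postnatal day 1, and were kept in 12% oxygen for 7 days. Flox normoxia mice were Pdcd10fl/fl littermates in 21% oxygen. Both groups carry the loxP-flanked allele. The Cre transgene, the Pdcd10 deletion, tamoxifen, as far as the design text states it, and low oxygen all differ between the groups. The design text does not state whether the flox mice of these libraries were injected, and it also mentions uninjected Cre carriers as controls, so how the control mice were handled is not known. The Slco1c1 promoter limits Cre mainly to brain endothelium, and the age of the animals at collection is not given. The other groups, KO normoxia and flox hypoxia (3 libraries each), serve below as levels with 1 change at a time. Poly(A) RNA of whole brain tissue was sequenced, with 50 ng of RNA of integrity number above 8.0 per library.

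Pdcd10, also called Ccm3, encodes a small adaptor protein of the cerebral cavernous malformation complex in endothelial cells. Loss of this complex releases a kinase cascade through MEKK3 that raises the transcription factors KLF2 and KLF4, and brain capillaries widen into leaky, blood-filled caverns. Hypoxia acts on the same vessels through the hypoxia-inducible factors, whose targets include Vegfa and the genes of glycolysis. Astrocytes and microglia around such lesions become reactive, and leaked blood brings hemoglobin and iron into the tissue.

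Each of the 7 libraries held between 43631460 and 67813639 counts, and levels are given as CPM, counts scaled to library size with the TMM factor. A gene without a count in a library could still have held 3, or 0.0442 to 0.0688 CPM at these depths, a limit that covers counting error only. Pdcd10 does not check the genotype in whole tissue. It lay at 17.8, 17.3 and 16.2 CPM in flox normoxia and at 16.8, 16.9, 14.7 and 17.0 CPM in KO hypoxia (log2 fold change -0.07 ± 0.07, SE, edgeR adjusted p = 0.617). Slco1c1, a thyroid hormone transporter of the blood-brain barrier whose promoter drives the Cre, did not pass either (0.48 ± 0.27, edgeR adjusted p = 0.296). The tissue label was checked on Snap25, an abundant neuronal transcript, which lay at 1997, 1998 and 1788 CPM in flox normoxia and at 1971, 1963, 1977 and 2013 CPM in KO hypoxia. All samples are labelled male, but 1 of the 3 flox normoxia and 2 of the 4 KO hypoxia libraries held Xist at 577 to 784 CPM. KO hypoxia replicate 1 stood apart from the other 3 libraries of its group in hemoglobin transcripts (1.72% of its counts against 0.345% to 0.419%). Its summed CPM of 18 endothelial markers was also the highest (989 against 601 to 699), within the limit of Dixon's test. The counts of genes and of most lists are therefore given with all libraries and without replicate 1. Many single genes are given with all libraries only, so their dependence on replicate 1 is not shown. No batch or date is in the labels, and in bulk tissue a change in the number of cells of a type cannot be told apart from a change of RNA per cell.

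Of 22507 genes tested, 2753 (12.2%) passed an adjusted p of 0.05, and these are the genes said below to rise or fall. KO hypoxia was higher for 1779 genes (7.9%) and lower for 974 (4.33%). The rises were the larger changes: the median log2 fold change was 0.79 over the genes that rose and -0.23 over those that fell, against -0.006 over all genes tested. Of the genes that rose 687 changed at least 2-fold, and of those that fell 54 did. The 4 KO hypoxia libraries all lay above the 3 flox normoxia libraries for 1680 of the genes that rose, and below them for 882 of the genes that fell. Rises made up 64.6% of the calls, and 76.6% when libraries were scaled by their totals with no composition factor. Over all genes tested the libraries did not overlap in this way for 11.8% upward and 9.48% downward.

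**Figure D1:**
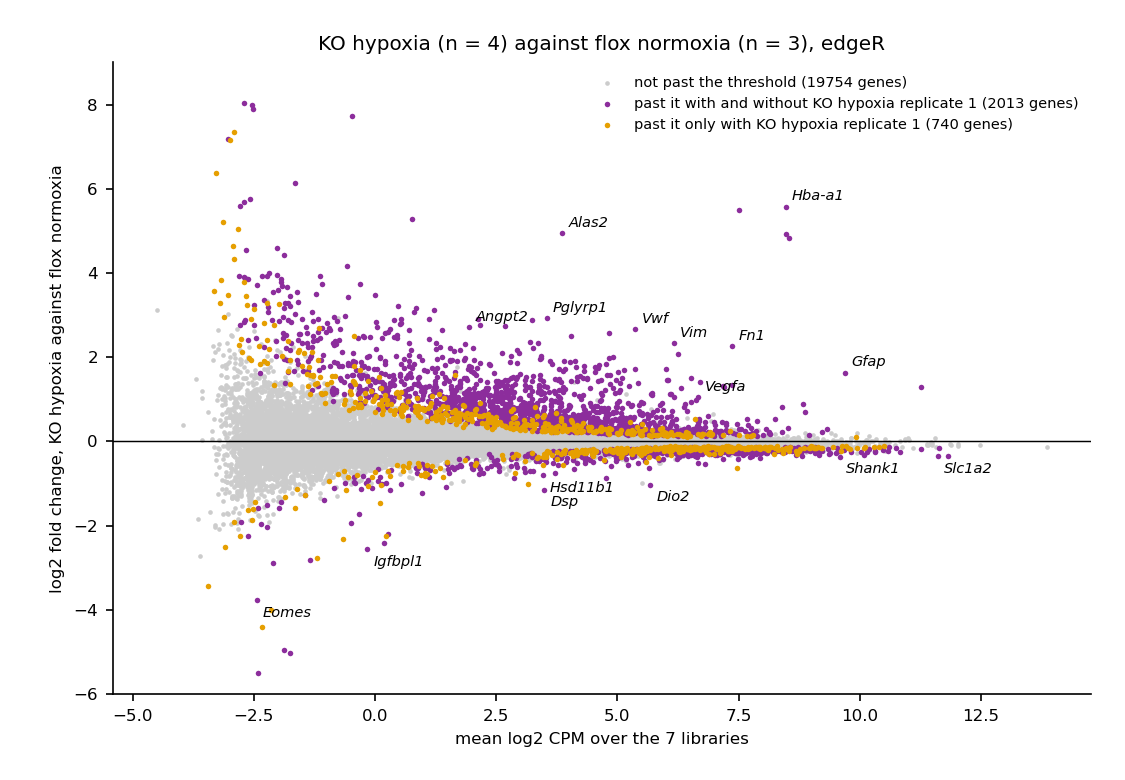
Log2 fold change of KO hypoxia (n = 4) against flox normoxia (n = 3) plotted against the mean log2 CPM over the 7 libraries, 1 point per gene tested. Purple points passed with and without KO hypoxia replicate 1 (2013 genes), orange points only with it (740 genes), and grey points did not pass; the rises reach further from 0 than the falls.

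Without KO hypoxia replicate 1, 2097 of 22278 genes passed (9.41%), of which 1428 were higher (6.41%) and 669 lower (3%). Of the 1779 rises, 1393 (78.3%) also passed without it, and of the 974 falls 620 (63.7%) did. No gene passed in opposite directions in these fits. Among changes of at least 2-fold, 598 of 687 rises and 32 of 54 falls remained. Replicate 1 was the highest of the 4 KO hypoxia libraries for 71.6% of the genes that rose, and it was the lowest for 38.4% of those that fell. Replicate 4 was the lowest for 40.6% of the genes that fell. The number of falls also rested on single control libraries, with 473 without flox normoxia replicate 1 and 610 without replicate 3. With only the libraries that held Y-linked transcripts (2 against 2), 1183 genes rose and 358 fell.

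The largest rises among well-expressed genes were of red-cell transcripts. Hba-a1, an alpha-globin gene, lay at 35.5, 44.8 and 57.2 CPM in the flox normoxia libraries and at 5305, 1092, 1228 and 1109 CPM in KO hypoxia replicates 1 to 4. Replicate 1 was far above the other 3, and all 4 were far above the controls. The log2 fold change was 5.57 ± 0.56 (edgeR adjusted p = 9.57e-06), and 4.64 without replicate 1 (adjusted p = 1.34e-09). Alas2, the erythroid enzyme that starts heme synthesis, rose from 1.62, 2.76 and 2.96 CPM to 191, 35.7, 45.0 and 32.2 CPM, by 4.94 with and 3.94 without replicate 1 on the log2 scale. Hba-a2, Hbb-bs and Hbb-bt rose by 4.91, 4.84 and 5.49, although reads may be shared between these near-identical globin genes. Slc4a1, the anion exchanger of red cells, rose by 3.47, and Bpgm, the red-cell enzyme that tunes oxygen release, by 0.88.

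In all 7 of 8 erythroid genes tested rose, each also without replicate 1, with a median log2 fold change of 4.88 with and 3.88 without that library. The median was 2.35 in KO normoxia and 1.22 in flox hypoxia against the same flox normoxia libraries. Hemoglobin genes together took 0.0197 ± 0.00595% of counts in flox normoxia (SD, n = 3) and 0.707 ± 0.674% in KO hypoxia (SD, n = 4), or 0.371 ± 0.0415% without replicate 1 (SD, n = 3). The 4 libraries lay above the 3 (two-sided exact permutation p = 0.0571, the smallest that 4 against 3 allows, adjusted p = 0.171 over 3 shares). Mitochondrially encoded transcripts took 5.08 ± 0.168% against 5.25 ± 0.146% (exact permutation p = 0.343).

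Iron and heme genes changed beside the globins. Of 14 such genes tested 7 rose, and the same 7 passed without replicate 1. Hmox1, which breaks down heme, lay at 3.46, 4.11 and 4.61 CPM in flox normoxia and at 32.9, 7.05, 10.1 and 8.94 CPM in KO hypoxia, so that replicate 1 was again the highest and the other 3 were still above the controls (1.86 ± 0.41 with it, 1.10 without it). The iron exporter Slc40a1 rose by 1.30, the haptoglobin gene Hp by 2.72 and the ferroxidase Cp by 1.08. Fth1 (ferritin heavy chain, 0.05) and Tfrc (transferrin receptor, -0.06) did not pass.

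Endothelial transcripts rose as a whole. All 18 pan-endothelial markers passed as higher, also without replicate 1, with a median log2 fold change of 1.54 with and 1.42 without it. Vwf, the platelet-binding factor stored in endothelium, rose from 11.7, 17.8 and 16.2 CPM to 170.2, 67.3, 90.1 and 59.0 CPM (2.67 ± 0.30, edgeR adjusted p = 2.19e-05, and 2.25 without replicate 1). Replicate 1 held the most, and every KO hypoxia library lay above every flox normoxia library. The junction gene Pecam1 rose by 1.98 ± 0.14 and Ly6a by 2.58 ± 0.24. Cldn5, the main claudin of brain tight junctions, went from 21.8, 24.0 and 17.2 CPM to 88.2, 56.0, 68.8 and 63.7 CPM (1.72 ± 0.13). Egfl7, a factor that endothelium secretes, had the smallest rise of the 18 (0.58 ± 0.10). The median over the 18 was 1.03 in KO normoxia and 0.42 in flox hypoxia.

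Most blood-brain barrier genes rose. Of 20 tested 13 were higher, the same 13 without replicate 1. The glucose transporter Slc2a1 lay at 78.9, 77.7 and 108 CPM in flox normoxia and at 288, 196, 190.1 and 199 CPM in KO hypoxia, with no overlap (1.31 ± 0.14, edgeR adjusted p = 2.07e-05). The efflux pump Abcb1a rose by 1.21 and the tricellular junction gene Lsr by 1.74. Pglyrp1, a peptidoglycan recognition protein, rose the most of the list (2.93 ± 0.19). Mfsd2a, the lipid transporter that restrains transcytosis, had a log2 fold change of 0.04 ± 0.12 and the scaffold Tjp1 one of 0.15 ± 0.05; neither passed.

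Of 11 genes of caveolae and transcytosis 7 rose, all 7 also without replicate 1. The caveolar coat genes Cav1 (1.51), Cavin1 (1.46), Cavin2 (1.14) and Ehd2 (1.71) rose the most. Plvap, the diaphragm protein of fenestrated vessels, did not pass (0.25 ± 0.22).

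Genes known to lie downstream of the CCM complex rose in part. Of 14 members of the Klf2 and Klf4 program 8 rose, the same 8 without replicate 1. Klf4 lay at 6.55, 6.64 and 12.3 CPM in flox normoxia and at 46.5, 24.3, 30.3 and 27.2 CPM in KO hypoxia, and Klf2 went from 9.03, 12.3 and 19.0 CPM to 60.7, 34.2, 48.7 and 49.7 CPM. No KO hypoxia library overlapped a control for either gene, although flox normoxia replicate 3 was the highest control for both. Klf4 rose by 1.91 ± 0.24 and Klf2 by 1.84 ± 0.23 (edgeR adjusted p = 6.12e-05 and 6.59e-05), and by 1.67 and 1.71 without replicate 1.

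Among known endothelial targets of these factors, Thbd, the thrombomodulin gene, rose from 18, 19.3 and 17.5 CPM to 83.0, 48.7, 57.7 and 48.6 CPM (1.71 ± 0.16), and Nos3, the endothelial nitric oxide synthase, by 1.92 ± 0.12. Procr, the protein C receptor, rose by 3.22 ± 0.48 with and 2.58 without replicate 1, and the protease Adamts1 by 1.26. The proteases Adamts4 (-0.36), Adamts5 (0.08) and Adamts9 (0.34) and Map3k3, which encodes MEKK3 itself (0.14), did not pass. Of 15 genes of coagulation and fibrinolysis 10 rose, the same 10 without replicate 1. Among them was Anxa2, a plasmin-assembling annexin (2.50 ± 0.21), while tissue factor F3 (0.12 ± 0.10) and Plat (0.17 ± 0.09) did not pass. The list's median was 1.71 with and 1.41 without replicate 1.

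**Figure D2:**
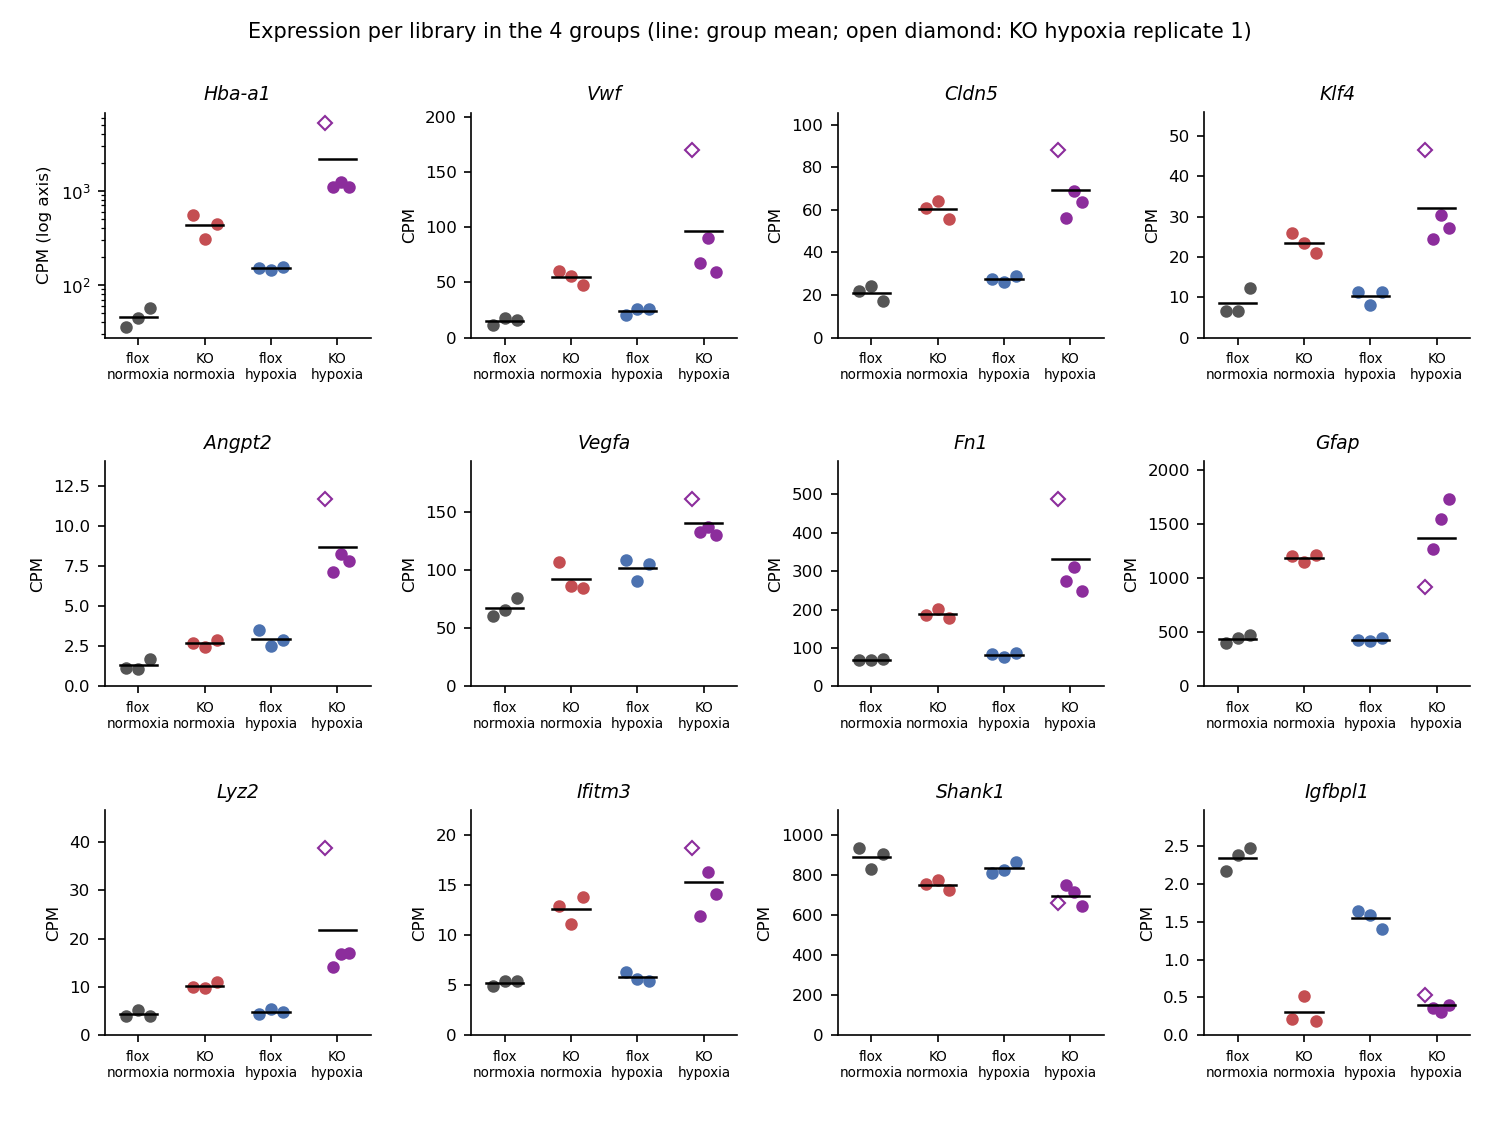
CPM of 12 genes in each library of the 4 groups (vertical axes from 0, logarithmic for Hba-a1), with a line at each group mean and KO hypoxia replicate 1 as an open diamond. Replicate 1 is the highest KO hypoxia library in 10 of the panels, is the lowest for Gfap, and lies among the others for Shank1; the KO hypoxia libraries do not overlap flox normoxia for any of the 12 genes.

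Of the sprouting genes, Angpt2, Vegfa, Apln, Cxcr4, Nid2, Col4a1 and Col4a2 were higher in KO hypoxia than in either single-change group, each past the threshold in both contrasts. Both contrasts were fitted with all libraries only, so whether these genes pass them without KO hypoxia replicate 1 was not tested. Angpt2, the ligand that loosens vessels by opposing angiopoietin 1 at the Tie2 receptor, lay at 1.17, 1.080 and 1.69 CPM in flox normoxia, at 2.68 ± 0.212 CPM in KO normoxia and 2.97 ± 0.527 CPM in flox hypoxia (mean ± SD, n = 3 each), and at 11.7, 7.14, 8.26 and 7.82 CPM in KO hypoxia. All 4 KO hypoxia libraries lay above all 9 others. The log2 fold change was 2.72 ± 0.20 against flox normoxia (2.55 without replicate 1), 1.71 ± 0.19 against KO normoxia and 1.55 ± 0.19 against flox hypoxia (edgeR adjusted p = 7.02e-07, 0.00282 and 8.49e-05).

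Vegfa, the main vascular growth factor, lay at 60.6, 65.5 and 75.5 CPM in flox normoxia and at 161, 133, 137 and 130.4 CPM in KO hypoxia. Every KO hypoxia library was above every control. It rose by 1.06 ± 0.10 (0.99 without replicate 1), by 0.60 ± 0.10 against KO normoxia and by 0.47 ± 0.10 against flox hypoxia (edgeR adjusted p = 5.24e-06, 0.0154 and 0.00621). Apln, the tip-cell ligand apelin, rose by 1.66 ± 0.14, by 0.91 ± 0.14 against KO normoxia and by 1.17 ± 0.14 against flox hypoxia (edgeR adjusted p = 2.07e-06, 0.0105 and 8.26e-05). Its receptor Aplnr rose by 2.88 ± 0.33 and differed from KO normoxia by 0.01 ± 0.27, which did not pass. Of 24 tip-cell and sprouting genes 15 rose, 13 of them also without replicate 1. Dll4 (0.80), which restrains neighbouring tip cells through Notch, was among the 15, whereas Nrp1 (-0.08), Nrp2 (0.00) and Esm1 (-0.26) did not pass.

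Targets of hypoxia-inducible factors and glycolysis genes rose little. Of 30 tested 15 were higher, 13 of them also without replicate 1, but the median log2 fold change over the list was 0.18. The lactate exporter Slc16a3 rose by 1.14 ± 0.19 and the oxygen-sensing hydroxylase Egln3 by 0.53 ± 0.12, while the glycolysis genes Ldha (0.23), Pgk1 (0.16) and Eno1 (0.32) had small rises. Pkm (0.08), Aldoa (0.07), Gapdh (0.07) and Adm (1.23 ± 0.41) did not pass. The list's median was 0.06 both in KO normoxia and in flox hypoxia. Epo, too low to test, had 2 counts over the flox normoxia and 32 over the KO hypoxia libraries.

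Promoters were read for these targets, from 250 bases before to 50 after the start (RefSeq, GRCm38.p6). ACGTG, the core of the hypoxia response element, on either strand, was in the promoters of 10 of 14 genes of the list that rose and of 11 of 14 that did not pass, against 21.8% of all 27025 genes (any of a gene's promoters). Slc2a1 is shown, as the largest rise of the list, with the motif in capitals (chr4:119108495-119108794, plus strand).
Slc2a1: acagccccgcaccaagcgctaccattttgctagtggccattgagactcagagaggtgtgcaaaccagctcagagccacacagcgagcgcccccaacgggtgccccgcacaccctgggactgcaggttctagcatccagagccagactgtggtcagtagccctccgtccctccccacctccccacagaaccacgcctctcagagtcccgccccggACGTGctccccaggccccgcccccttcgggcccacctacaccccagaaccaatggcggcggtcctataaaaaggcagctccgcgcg

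Mural cell and matrix transcripts also rose. Of 12 pericyte markers 10 rose, the same 10 without replicate 1, with a median of 1.15 with and 1.02 without it. Rgs5, a regulator of G-protein signals in pericytes, went from 79.99, 83.8 and 101 CPM to 245, 198, 224 and 192 CPM (1.28 ± 0.09), and the channel subunits Kcnj8 and Abcc9 rose by 1.62 and 1.48. The KO hypoxia libraries lay above all controls for each of these 3 genes. Of 10 smooth muscle markers 5 rose, and 3 of these held without replicate 1, with 3 rises without flox normoxia replicate 1 or 2. Acta2, smooth muscle actin, rose by 1.00 ± 0.19, and Myh11, the smooth muscle myosin, did not pass (0.15 ± 0.13).

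Of 31 matrix genes 21 rose and 1 fell, and 18 of the rises and not the fall held without replicate 1. Fn1, the fibronectin gene, lay at 68.6, 67.5 and 69.8 CPM in flox normoxia and at 489, 274, 311 and 249 CPM in KO hypoxia, so that the lowest KO hypoxia library was above 3 times the highest control. Its log2 fold change was 2.27 ± 0.17 (2.02 without replicate 1, edgeR adjusted p = 7.42e-07 and 1.64e-10). The basement membrane genes Col4a1, Lama5 and Hspg2 rose by 1.41, 1.58 and 1.59, and the fibrillar collagen Col3a1 by 1.99 ± 0.23. The list's median was 0.83 with and 0.56 without replicate 1. Tnc, tenascin C, was the gene that fell (-0.55 ± 0.15), and it did not pass without KO hypoxia replicate 1 or 2 or flox normoxia replicate 3. Of 12 fibroblast and meningeal markers 4 rose, 3 of them collagens. Dcn (0.19 ± 0.11) and Pdgfra (-0.01 ± 0.06), also on the list, did not pass.

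Among 13 genes used as markers of a mesenchymal shift in endothelium 7 rose, 6 of them also without replicate 1. Vim, the intermediate filament vimentin of both endothelium and astrocytes, rose from 27.8, 30.6 and 28.7 CPM to 211, 112, 126 and 134 CPM (2.33 ± 0.16). The transcription factors Zeb1 (0.04), Zeb2 (-0.02), Twist1 (0.22) and Snai2 (0.51) did not pass, and Snai1 passed with replicate 1 only (0.83 with it, 0.68 without it). Of 20 genes of TGF-beta and BMP signaling 10 rose, 8 of them also without replicate 1. The receptor Acvrl1 rose by 1.79 ± 0.15, the ligand Tgfb1 by 1.45 ± 0.12 and Tgfbr2 by 1.22 ± 0.13, while Smad7 (-0.18 ± 0.07) and Bmpr2 (-0.02 ± 0.05) did not pass.

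Reactive astrocyte genes rose and some astrocyte maintenance genes fell. Gfap, the astrocyte intermediate filament, lay at 403, 447 and 471 CPM in flox normoxia and at 918, 1272, 1543 and 1732 CPM in KO hypoxia. Replicate 1, the highest of the 4 for most genes that rose, was the lowest of the 4 for Gfap, and still above all controls. The log2 fold change was 1.63 ± 0.15 with and 1.78 ± 0.09 without replicate 1 (edgeR adjusted p = 3.25e-06 and 5.19e-09). Against KO normoxia, at 1188 ± 34.0 CPM (mean ± SD, n = 3), it was 0.20 ± 0.14 and did not pass (adjusted p = 0.562).

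Of 29 reactive astrocyte genes 19 rose, 17 of them also without replicate 1, with a median of 1.081 with and 0.79 without it. Osmr, the oncostatin M receptor, rose by 1.34 ± 0.12, the complement gene C4b by 1.73 ± 0.15 and Emp1, an epithelial membrane protein, by 2.77 ± 0.29. Srgn, a proteoglycan core protein of blood cells and endothelium, rose by 2.22 ± 0.16. Serpina3n, a widely used mark of reactive astrocytes, went the other way, from 76.7, 67.8 and 62.3 CPM to 49.0, 22.6, 29.7 and 38.1 CPM, without overlap. Its log2 fold change was -0.98 ± 0.33 (adjusted p = 0.0652, not passed), and -1.20 ± 0.34 without replicate 1 (adjusted p = 0.0374). Its mean was 17.7 ± 0.851 CPM in flox hypoxia and 40.2 ± 30.6 CPM in KO normoxia (± SD, n = 3 each).

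Among 12 astrocyte maintenance genes 4 fell and 1 rose, and all 5 held without replicate 1. Slc1a2, the main glutamate transporter of the forebrain, fell from 3513, 3659 and 3592 CPM to 2587, 2899.8, 2989.9 and 2821 CPM (-0.35 ± 0.04, edgeR adjusted p = 8.25e-05). The gap-junction gene Gja1 fell (-0.27 ± 0.05), as did the glypican Gpc5 (-0.50 ± 0.06), whereas the second glutamate transporter Slc1a3 rose (0.30 ± 0.05). Each of these differences is under 1.5-fold, and with no composition factor in the scaling the list had 4 rises and 4 falls. Of 13 genes of gp130 and STAT3 signaling 4 rose, 3 of them also without replicate 1, and Cntfr, a receptor subunit for ciliary neurotrophic factor, fell (-0.33 ± 0.06). Stat3 rose by 0.47 ± 0.06 and the ligand Lif by 1.26 ± 0.20, while Il6st, which encodes gp130, did not pass (0.14 ± 0.06).

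Interferon-stimulated genes rose. Of 22 tested 18 were higher, the same 18 without replicate 1, with a median of 1.07 with and 0.90 without it. Rsad2, the antiviral enzyme viperin, lay at 0.395, 1.13 and 0.778 CPM in flox normoxia and at 12.7, 3.06, 4.8 and 2.67 CPM in KO hypoxia (2.92 ± 0.53, edgeR adjusted p = 0.00167, and 2.20 without replicate 1). Ifitm3, a membrane protein that blocks virus entry, went from 4.85, 5.42 and 5.39 CPM to 18.7, 11.9, 16.3 and 14.0 CPM (1.55 ± 0.13). No KO hypoxia library overlapped a control for these 2 genes. Irf7, a regulator of the response, rose by 1.65 ± 0.24, and Isg15, a ubiquitin-like modifier, by 0.98 ± 0.24. The signal transducers Stat2 (0.11 ± 0.07) and Irf9 (0.32 ± 0.11) did not pass. The list's median was 0.90 in KO normoxia and 0.07 in flox hypoxia, against the same flox normoxia libraries.

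The interferon-stimulated response element, searched as GAAA, any 2 bases and GAAA, was in the promoters of 10 of 17 of the genes that rose and had a promoter in the RefSeq table (GRCm38.p6), and of 1 of 2 that did not pass, on either strand. Of all genes 3.99% had it in a promoter. The 3 shown are Rsad2, the largest rise of the list, Isg15, with the most matches, which overlap each other, and Ifit1, with 2 separate matches. Capitals mark the motif or its reverse complement. The match begins 120 bases before the start in Rsad2, 78 bases before it in Isg15 and 104 and 85 bases before it in Ifit1. Their positions are chr12:26456403-26456702, minus strand, for Rsad2, chr4:156200769-156201068, minus strand, for Isg15, and chr19:34640639-34640938, plus strand, for Ifit1.
Rsad2: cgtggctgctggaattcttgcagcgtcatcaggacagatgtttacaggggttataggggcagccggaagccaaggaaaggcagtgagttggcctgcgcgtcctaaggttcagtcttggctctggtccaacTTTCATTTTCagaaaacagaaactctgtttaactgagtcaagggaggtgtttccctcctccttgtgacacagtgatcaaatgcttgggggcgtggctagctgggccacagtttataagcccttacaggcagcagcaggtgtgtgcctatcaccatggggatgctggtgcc
Isg15: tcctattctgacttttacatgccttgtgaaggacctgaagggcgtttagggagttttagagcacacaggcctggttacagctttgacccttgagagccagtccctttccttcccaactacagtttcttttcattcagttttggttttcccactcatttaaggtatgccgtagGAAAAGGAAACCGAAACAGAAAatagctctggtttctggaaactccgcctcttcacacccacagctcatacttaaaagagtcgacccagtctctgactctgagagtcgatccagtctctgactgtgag
Ifit1: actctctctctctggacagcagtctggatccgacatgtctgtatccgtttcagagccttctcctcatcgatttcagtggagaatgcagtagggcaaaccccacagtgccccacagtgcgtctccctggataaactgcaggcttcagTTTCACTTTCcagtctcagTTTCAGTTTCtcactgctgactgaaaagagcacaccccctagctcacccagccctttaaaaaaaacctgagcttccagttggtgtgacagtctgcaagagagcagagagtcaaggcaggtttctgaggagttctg
For comparison, TTCCNGGAA, a STAT3 site, was in 2 of 16 promoters of reactive astrocyte genes that rose and in 0 of 9 of those that did not pass, against 1.35% of all genes. The 2 were Gfap and Steap4. A match describes the sequence only.

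Of 15 antigen presentation genes 13 rose, the same 13 without replicate 1. The count was 8 without flox normoxia replicate 1 and 8 with only the libraries that held Y-linked transcripts. The class II genes H2-Aa, H2-Ab1 and H2-Eb1 rose by 2.21, 1.99 and 2.33, the invariant chain Cd74 by 2.09 ± 0.26, and B2m, the light chain of class I molecules, by 0.74. Reads may be shared among class I genes. Ciita, the regulator of class II genes, did not pass (-0.30 ± 0.15).

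Genes of microglia rose. Of 16 homeostatic markers 12 were higher, 10 of them also without replicate 1, with a median of 0.42. Leaving out each library in turn gave 8 to 12 rises, and none passed against a fold of 1.5. Trem2, a lipid-sensing receptor, rose by 0.68 ± 0.11 and its adaptor Tyrobp by 0.77 ± 0.14, while Tmem119 (0.16 ± 0.09) and Aif1 (0.01) did not pass. Of 22 genes of disease-associated microglia 14 rose, 12 of them also without replicate 1, with a median of 0.67, and 9 rose without flox normoxia replicate 1. Lyz2, lysozyme of macrophages and granulocytes, lay at 3.93, 5.1 and 3.89 CPM in flox normoxia and at 38.9, 14.2, 16.8 and 17.1 CPM in KO hypoxia (2.34 ± 0.28, and 1.90 without replicate 1). Replicate 1 was more than 2 times the next library, and all 4 lay above the controls. Lgals3, a galectin, rose by 2.48 ± 0.43 and Gpnmb by 1.95 ± 0.32, while Apoe (-0.11 ± 0.06), Axl (0.14) and Lpl (0.00) did not pass.

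Markers of blood-derived cells were present at low levels. Of 9 genes of neutrophils and monocytes that could be tested 7 rose, but only 4 of these held without replicate 1, and 7 others had too few counts. Without flox normoxia replicate 1 or 2 the count was 3. S100a8 and S100a9, the calprotectin genes of neutrophils, passed with replicate 1 (2.69 and 2.50) and not without it (1.43 and 1.19, edgeR adjusted p = 0.143 and 0.15). Of the 7 untested genes, Retnlg had 2 counts over flox normoxia and 54, 7, 4 and 8 in KO hypoxia, Cxcr2 6 counts and 30, 7, 9 and 3, and Mmp8 none and 30, 8, 4 and 0. Mmp8 was at least 11.2-fold higher against 3 counts over the control group (4.34-fold without replicate 1). Replicate 1 held most of the counts of these 3 genes. Ly6g had 2 counts over flox normoxia and 6 over KO hypoxia, Elane 2 and 0, Mpo 7 and 18, and Camp 20 and 8. Ccr2, the receptor of recruited monocytes, rose with and without replicate 1 (2.48 ± 0.48 and 1.82 ± 0.33). The integrin Itgam, shared with microglia, rose by 0.86 ± 0.17.

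Of 8 lymphocyte genes tested 5 rose, the same 5 without replicate 1, and 3 rose without flox normoxia replicate 2. Igkc, the kappa light chain, rose by 2.80 ± 0.40 and Cd79b, a part of the B-cell receptor, by 2.25 ± 0.40. Cd4 (0.05 ± 0.41) and Ighm (0.39 ± 0.23) did not pass, and the T-cell genes Cd3d, Cd3e and Cd3g were too low to test, with 26, 31 and 37 counts over KO hypoxia and 3, 4 and 5 over flox normoxia. Ccl2, Plac8 and the genes given by counts alone were picked after their values were seen. Plac8, of monocytes and other blood cells, had 9 counts over flox normoxia and 154 over KO hypoxia. Of 10 markers of border-associated macrophages 4 rose, the same 4 without replicate 1, among them the mannose receptor Mrc1 (0.91 ± 0.17) and Siglec1 (2.51 ± 0.36).

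Complement, chemokine and adhesion genes rose in part. Of 15 complement genes 11 rose, 10 of them also without replicate 1, among them C1qa (0.94 ± 0.13), made by microglia, and the inhibitor Serping1 (1.22 ± 0.21). C3, the central component, rose by 1.56 ± 0.40, with overlap between groups. Of 28 chemokine, cytokine and adhesion genes 17 rose, 13 of them also without replicate 1. Cx3cl1, the neuronal chemokine fractalkine, fell with replicate 1 (-0.22 ± 0.06) and did not pass without it (-0.16), nor without flox normoxia replicate 1 or 3 or KO hypoxia replicate 4. Icam1 and Vcam1, which let leukocytes adhere to endothelium, rose by 1.77 ± 0.21 and 0.68 ± 0.12. Ccl2, the monocyte attractant, had 3 counts over the 3 flox normoxia libraries and 62, 8, 22 and 11 counts in KO hypoxia. The cytokines Il1a (0.37), Il1b (1.03 ± 0.49) and Il18 (-0.07) did not pass.

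**Figure D3:**
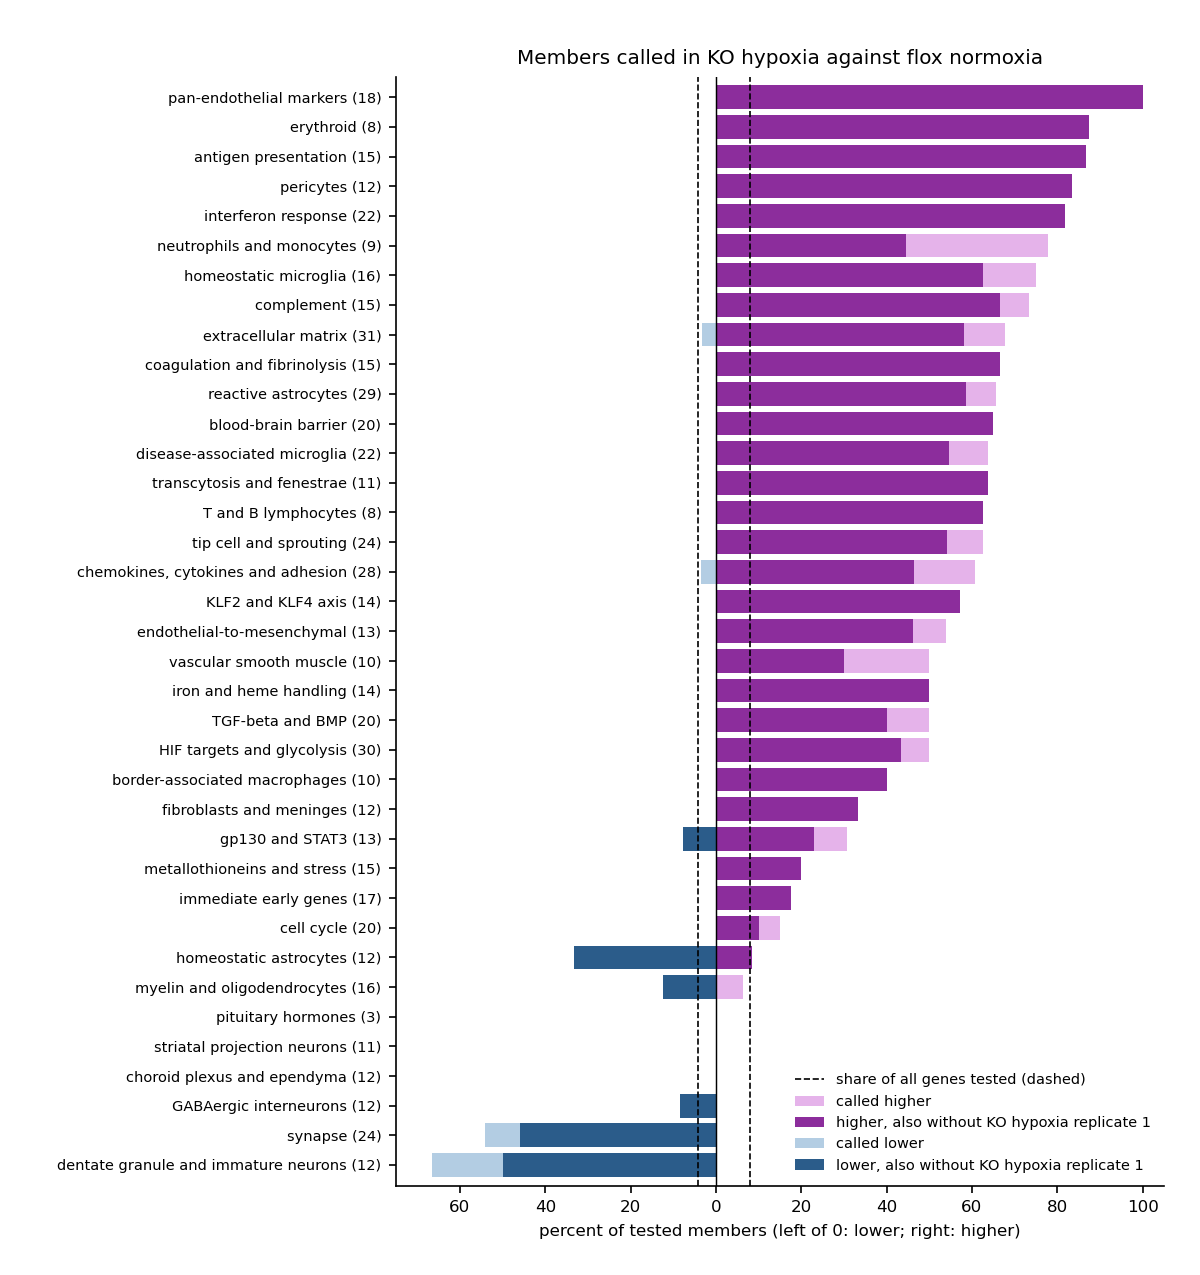
Percent of the tested members of each gene list that passed as higher (right of 0) or lower (left of 0) in KO hypoxia against flox normoxia, with the number tested in parentheses. Dark bars also passed without KO hypoxia replicate 1, and dashed lines mark the shares over all genes tested (7.9% higher, 4.33% lower).

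Genes of the dentate gyrus and of newborn neurons fell. Of 12 tested 8 were lower, 6 of them also without replicate 1, with a median log2 fold change of -0.45 with and -0.43 without it. The count was 5 without flox normoxia replicate 1 and 5 with only the libraries that held Y-linked transcripts. Igfbpl1, a marker of young neurons, lay at 2.17, 2.39 and 2.48 CPM in flox normoxia and at 0.527, 0.36, 0.305 and 0.403 CPM in KO hypoxia, without overlap (-2.56 ± 0.26, edgeR adjusted p = 9.97e-06, and -2.73 without replicate 1). Eomes, a transcription factor of intermediate neuronal progenitors, had 38, 36 and 38 counts in flox normoxia and 4, 5, 1 and 0 counts in KO hypoxia. It had 10, 12 and 0 counts in KO normoxia and 22, 16 and 12 in flox hypoxia. Igfbpl1, Eomes and Draxin were picked from the list after their values were seen.

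Of granule-cell genes, the desmosome gene Dsp fell from 19.9, 19.5 and 13.8 CPM to 7.01, 9.3, 7.58 and 8.16 CPM (-1.15 ± 0.13, -1.09 without replicate 1). The synaptic organiser C1ql2 fell from 22.7, 22.5 and 21.7 CPM to 15, 12.8, 14.1 and 14.3 CPM (-0.67 ± 0.09), and so did the transcription factor Prox1 (-0.57 ± 0.09). The groups did not overlap for any of these 3 genes. Draxin, an axon guidance factor, had a log2 fold change of -0.98 ± 0.24. Dcx (-0.23 ± 0.07) and Sox11 (-0.34 ± 0.10), of migrating young neurons, passed with replicate 1 and not without it (-0.25 and -0.32). Neurod1 (-0.11 ± 0.06), Sox4 (0.14 ± 0.07) and Calb1 (-0.08 ± 0.04) did not pass. The list's median was -0.54 in KO normoxia and -0.09 in flox hypoxia.

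Synapse genes fell slightly. Of 24 tested 13 were lower, 11 of them also without replicate 1, with a median of -0.15. Shank1, a scaffold of excitatory synapses, fell from 935, 827 and 905 CPM to 660.3, 751, 713 and 644 CPM, without overlap (-0.36 ± 0.05, edgeR adjusted p = 0.000302). Bsn, of the presynaptic active zone, fell (-0.31 ± 0.08), as did Shank2 (-0.28 ± 0.07). Snap25 (0.04 ± 0.05) and Syt1 (-0.04 ± 0.03), the fusion machinery of vesicles, did not pass. The number of falls depended on the fit: 4 passed with only the 7 libraries, 6 without flox normoxia replicate 1 and 3 with only the libraries that held Y-linked transcripts.

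Of 12 interneuron genes Reln, an extracellular glycoprotein, was the 1 that fell (-0.23 ± 0.05), also without KO hypoxia replicate 1. Gad1, which makes GABA, had a log2 fold change of -0.01 ± 0.05. None of 11 striatal genes passed in edgeR (4 at an unadjusted p under 0.05, 2 in DESeq2). Of 16 myelin and oligodendrocyte genes Opalin (-0.50 ± 0.12) and Mal (-0.34 ± 0.10) fell, also without KO hypoxia replicate 1. Neither passed without flox normoxia replicate 2 or with only the 7 libraries, and 1 gene of the list fell without flox normoxia replicate 3 or KO hypoxia replicate 2 or 4. Olig1 rose (0.23 ± 0.07), but no gene of the list rose without KO hypoxia replicate 1, 3 or 4 or without flox normoxia replicate 1 or 2. Mbp, myelin basic protein, did not pass (-0.17 ± 0.09). Over all genes tested 4.33% fell and 7.9% rose, and a single call in lists of this length is near those shares. None of 12 choroid plexus and ependymal genes passed in edgeR with all libraries (1 at an unadjusted p under 0.05, 0 in DESeq2). Without KO hypoxia replicate 1, 1 of the 12 passed as higher in edgeR.

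The largest other falls among well-expressed genes included a pair of hormone enzymes. Dio2, the enzyme that activates thyroid hormone, lay at 63.3, 51.2 and 126 CPM in flox normoxia and at 28.2, 46.4, 42.1 and 40.8 CPM in KO hypoxia (-1.03 ± 0.22, -0.89 without replicate 1), with flox normoxia replicate 3 far above the other controls. Hsd11b1, which regenerates active glucocorticoid, fell from 15.7, 14.5 and 15.4 CPM to 8.05, 8.07, 8.87 and 9.77 CPM (-0.81 ± 0.08). Neither gene overlapped between groups. The Wnt receptor Fzd2 (-0.70 ± 0.09), the secreted myocilin Myoc (-0.86 ± 0.18), the adhesion gene Kirrel2 (-0.70 ± 0.19), the serotonin receptor Htr4 (-0.64 ± 0.15), Adnp (-0.69 ± 0.18) and Utp14b (-0.74 ± 0.15) also fell, each also without replicate 1. Fam205a3 and Fam205a4 fell (-0.77 and -0.75), but they are near-identical copies whose reads cannot be told apart with certainty. Among the largest rises were Capg, an actin-capping protein (2.92 ± 0.21), Ube2l6, the conjugating enzyme for Isg15 (2.88 ± 0.44 with and 2.10 without replicate 1), and Tent5c, a poly(A) polymerase (2.75 ± 0.50 and 1.84).

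Immediate early genes varied between the control libraries. Btg2, an antiproliferative gene, lay at 16.2, 16.0 and 38.1 CPM in flox normoxia and at 42.8, 58.8, 62.4 and 70.1 CPM in KO hypoxia (1.31 ± 0.24). Of 17 tested 3 rose, the same 3 without KO hypoxia replicate 1. The count moved with the control libraries: it was 11 without flox normoxia replicate 3, 1 without replicate 1, 1 with 2 falls without replicate 2, and 7 with only the libraries that held Y-linked transcripts. The list's median was 0.18 with all libraries, 0.39 without KO hypoxia replicate 1, and 0.84, -0.15 and -0.20 without flox normoxia replicates 3, 1 and 2. In flox normoxia Arc lay at 168, 142 and 598 CPM and in KO hypoxia at 140.3, 443, 403 and 347 CPM (0.14 ± 0.41), so that control replicate 3 and KO hypoxia replicate 1 each stood apart from their groups. Of 15 metallothionein and stress genes 3 rose, the same 3 without KO hypoxia replicate 1, among them Mt1 (0.40 ± 0.10) and Mt2 (0.51 ± 0.12). Without flox normoxia replicate 1 there were 1 rise and 1 fall (median -0.14), and without replicate 3 there were 6 rises (median 0.40), against a median of 0.07 with all libraries. Of 20 cell-cycle genes 3 rose, 2 of them also without KO hypoxia replicate 1 and 1 without flox normoxia replicate 1. Cdk1, the mitotic kinase, rose by 1.56 ± 0.39 and Cdc20 by 0.73 ± 0.18, while Mki67 (0.29 ± 0.18) and Pcna (0.02 ± 0.07) did not pass.

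**Figure D4:**
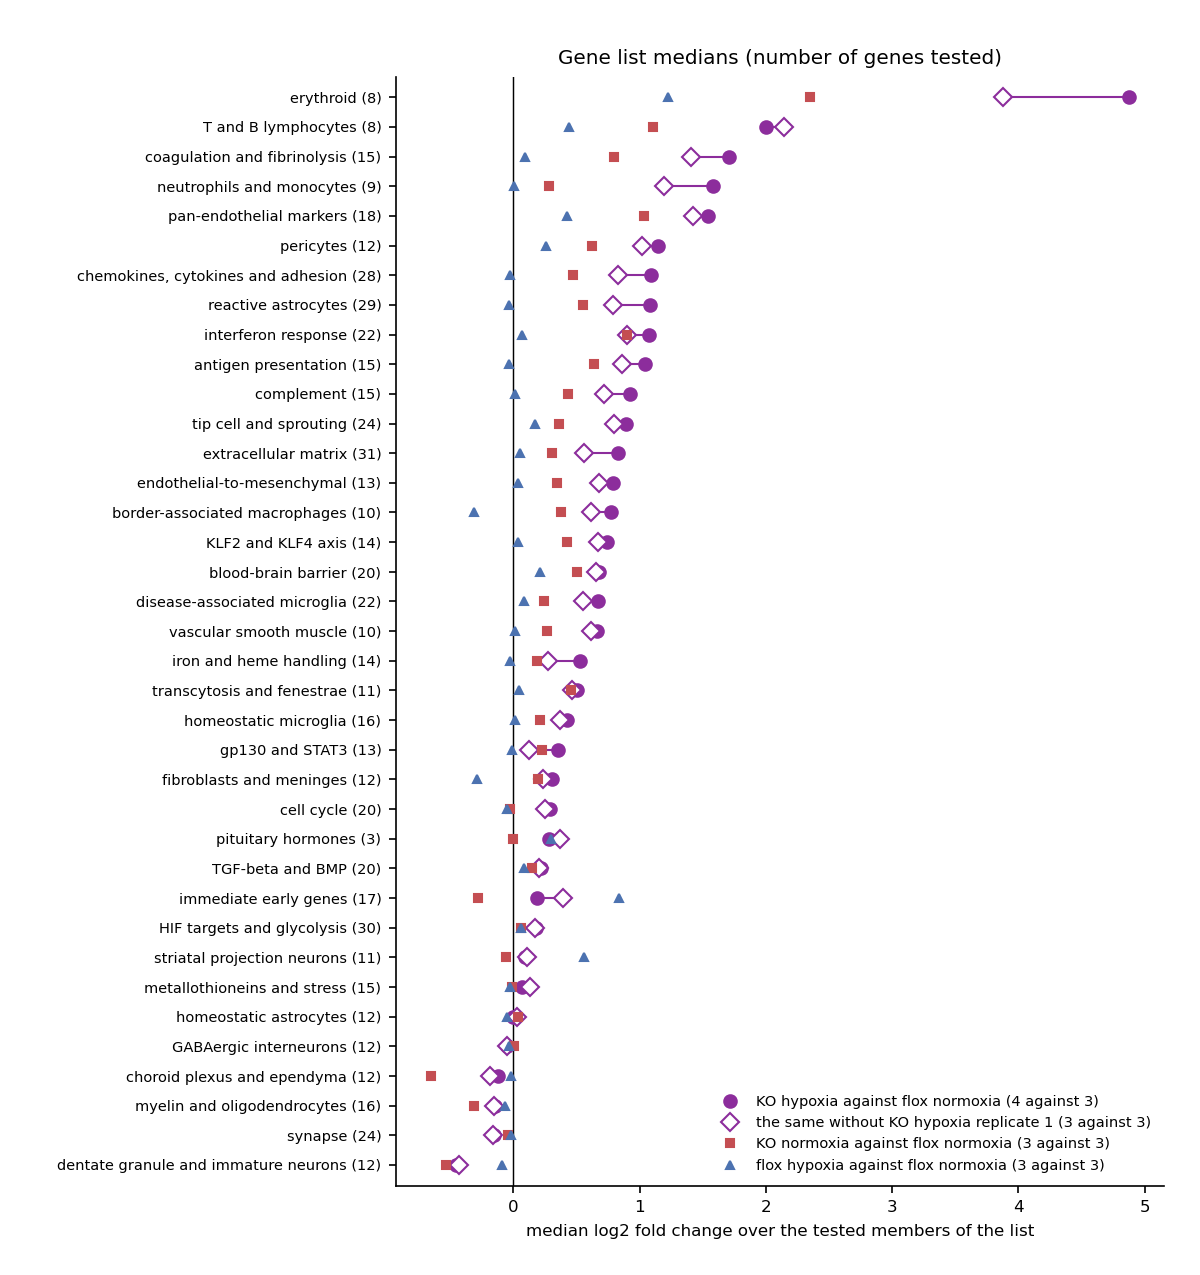
Median log2 fold change over the tested members of each gene list (number in parentheses): KO hypoxia against flox normoxia with all libraries (filled circles) and without KO hypoxia replicate 1 (open diamonds), and KO normoxia (squares) and flox hypoxia (triangles) against the same flox normoxia libraries. The erythroid list moves furthest without replicate 1, from 4.88 to 3.88, and the pan-endothelial list moves from 1.54 to 1.42.

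Some calls depended on KO hypoxia replicate 1. Among well-expressed genes, the largest changes that no longer passed without it were in Tnfrsf25 (-1.0 with and -0.76 without it), Galnt15 (0.92 and 0.66), the Fc receptor Fcgr3 (0.81 and 0.50), Col8a1 (0.77 and 0.49), Hpgd, which breaks down prostaglandins (0.77 and 0.59), and Ifit3b (0.75 and 0.62), whose reads may be shared with Ifit3. The direction was the same in each. Conversely, 84 genes passed only without replicate 1, 35 higher and 49 lower. Beside Serpina3n, the largest were the hypoxia-inducible factor Hif3a (-0.65 with and -0.86 without it), Junb (0.66 and 0.83), Krt20 (-0.47 and -0.58), Tob1 (0.34 and 0.47) and Fxyd1 (0.36 and 0.42).

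The same fit gives the other contrasts of these groups, which share the flox normoxia or the KO hypoxia libraries with the comparison above. These contrasts were fitted with all libraries only. KO normoxia against flox normoxia gave 524 genes (2.33%), 441 higher (1.96%) and 83 lower (0.369%). Flox hypoxia against flox normoxia gave 5 genes (0.0222%), all higher (Btg2, Cxcl12, Gh, Kdr and Vil1), with 832 higher and 665 lower at an unadjusted p under 0.05. KO hypoxia against KO normoxia gave 202 genes (0.897%), 140 higher (0.622%) and 62 lower (0.275%). Against flox hypoxia KO hypoxia differed in 2039 genes (9.06%), 1526 higher (6.78%) and 513 lower (2.28%). The interaction of knockout and oxygen, which asks whether the effects add on the log2 scale, passed for no gene in edgeR (0%, smallest adjusted p = 0.563; no other tool was run for it), with 1635 genes at an unadjusted p under 0.05. At that unadjusted limit, here and for flox hypoxia, chance alone passes a share of about 0.05 of the 22507 genes.

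For the genes described first, the values of the single changes stand side by side as follows. Angpt2 had a log2 fold change of 1.01 in KO normoxia and 1.17 in flox hypoxia, against 2.72 in KO hypoxia. For Vegfa these were 0.46, 0.59 and 1.06. Both genes were thus higher with both changes than with either. Klf4 had 1.45, 0.26 and 1.91, Gfap 1.43, -0.04 and 1.63, and Cldn5 1.52, 0.39 and 1.72. For these 3 genes KO hypoxia against KO normoxia did not pass (edgeR adjusted p = 0.363, 0.562 and 0.51). Hba-a1 had 3.24, 1.71 and 5.57, and it passed against KO normoxia (2.33 ± 0.47, adjusted p = 0.0333). That contrast was fitted with all libraries only. Whether Hba-a1 passes it without KO hypoxia replicate 1, far the highest library for this gene, was not tested.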

How the data were processed

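The libraries were made from mouse brain RNA with a stranded kit for messenger RNA, per the labels' protocols. The authors deposited raw counts per gene for 55416 Ensembl identifiers and RPKM values for the same genes. The submitters' processing notes list HISAT2, edgeR and GRCm39, with no tool version. Which annotation and strand setting the counting used is not stated in any source read here. The deposited RPKM equal count divided by column total and gene length (relative range at most 9.84e-15 over 35248 genes). Symbols were found for 52083 identifiers; the 3333 others held 0.346% of counts and stayed in the fit. No genome of that build was used, so no gene coordinates are given. Promoter sequences are RefSeq's (GRCm38.p6).

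Genes kept by filterByExpr (22507) were fitted in edgeR 4.0.16 (R 4.3.3; quasi-likelihood, TMM, 1 mean per group, all 13 libraries), and the Benjamini-Hochberg threshold was 0.05 over all genes of a contrast. Standard errors come from the F statistic. Labels name tissue from animals but no animal, so p-values measure the spread between libraries. No library repeated another (chi-square per degree of freedom at least 8.07 within groups). On simulated data for this comparison (22149 genes) edgeR called 77.5% of genes raised 1.5-fold, 70% of those lowered to 0.667, 92.5% of those doubled and 9 of 21949 unchanged genes. The changes were put only in genes above a low-count limit, and no simulated library stood apart as KO hypoxia replicate 1 did. These rates therefore do not cover low genes or an outlying library. Shares used exact permutation tests (scipy 1.17.1).

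The comparison and the 37 gene lists (581 genes, 555 tested, 39 in more than 1 list) were chosen with earlier results of these data known, so lists are described by counts and medians, without a test. Named genes are the 12 largest rises and falls above 2 log2 CPM without overlap, up to 4 called and 2 uncalled members of each list, 10 fixed genes and 12 that depend on KO hypoxia replicate 1; other list members in the text were chosen after their values were seen. Some list members are not reported here. Same-numbered libraries were not treated as pairs in the main fit. Alternatives were RLE scaling, no composition factor, other filters, DESeq2 1.42.0, limma 3.58.1 on log2(RPKM + 1) and log2(RPKM + 0.1), a fold of 1.5, a replicate block, fewer libraries, an Xist term and leaving out each library.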

Additional observations from a re-analysis of the deposited data

Results flagged for a closer look

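Of 40 quantities checked in the 4 KO hypoxia libraries (the summed CPM of each of the 37 lists and 3 shares of counts), 3 had 1 library far from the others by the 95% critical value of Dixon's test, which chance passes for about 1 in 20. The summed erythroid transcripts of replicate 1 lay at 17764 CPM against 3690 to 4438 CPM in the others (gap over range 0.882 on the log2 scale). The hemoglobin share of replicate 1 was 1.72% against at most 0.419% (0.947, on the percent scale and not on log2, so not to be ranked against the sums). The hemoglobin genes are in both quantities. In replicate 2 the summed myelin transcripts were the lowest, at 4760 CPM against 5630 to 5785 CPM (0.860 on the log2 scale).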

How the results depend on the processing

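Against 2753 genes in all, 1779 higher and 974 lower, RLE scaling gave 1767 and 936, and no filter on low counts 1942 and 1236. Falls were fewer with no composition factor (602, with rises then 76.6% of calls against 64.6%), in limma on log2(RPKM + 1) (444) and log2(RPKM + 0.1) (447), where rises made up 79.7% and 80.1% of calls. With only the 7 libraries 1825 genes passed, 384 of them lower (rises 79.0%). With only the libraries with Y-linked transcripts 1541 passed, 1183 higher and 358 lower (rises 76.8%). Tested against a fold of 1.5, 464 passed, 455 higher and 9 lower. DESeq2 gave 3299, 2011 higher and 1288 lower.

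A replicate block left 2134 genes, of which 607 were lower. Same-numbered libraries of the 2 groups correlated at 0.0503, 0.0370 and 0.137 in their deviations from the group means. Differently numbered libraries were not correlated beside them, so whether the numbers mark pairs was not tested. Leaving out each library in turn gave 1688 to 3077 genes, 1215 to 1997 higher and 473 to 1080 lower, the lowest without flox normoxia replicate 1. No gene that passed with all libraries and TMM passed in the opposite direction in any of these fits. Hspa5, not called with all libraries (-0.08), was higher with only the libraries with Y-linked transcripts (0.195). Of list medians that moved by more than the spread between replicates most did so in limma with a pseudocount of 1, which shrinks low genes. Without replicate 1 the erythroid (3.88), coagulation (1.41), matrix (0.56) and gp130 (0.13) medians moved. At this depth genes of a few counts per library, among them the neutrophil gene Ly6g and the T-cell genes Cd3d, Cd3e and Cd3g, could not be tested.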

Other observations

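Pituitary hormone transcripts marked a group outside the comparison. Gh, growth hormone, had 38, 37 and 46 counts in the 3 flox hypoxia libraries, no count in flox normoxia or KO normoxia, and 2, 2, 0 and 0 counts in KO hypoxia, and Prl, prolactin, had 19, 6 and 13 counts in flox hypoxia and at most 2 in any other library. Of 7 pituitary genes 3 were kept by the filter over all groups. None of the 3 passed the comparison in edgeR (0 at an unadjusted p under 0.05, 0 in DESeq2). Gh was 1 of the 3, kept on its flox hypoxia counts. Its counts in the compared groups were too few for the test to decide. Summed choroid plexus and ependymal transcripts ran from 24.0 to 360 CPM over the 3 KO normoxia libraries and from 329 to 482 CPM in KO hypoxia.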
